A study of Mus musculus with 2 samples.

Results

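The 8 genes described here encode chains of collagens I, III, V and VI: Col1a1, Col1a2, Col3a1, Col5a1, Col5a2, Col6a1, Col6a2 and Col6a3. They were chosen by name out of the 21849 genes in the files. All 8 had at least 10 CPM (UMI counts scaled so that each library sums to 1000000) in either library. Further chain genes of collagens V and VI, Col5a3, Col6a4, Col6a5 and Col6a6, were left out, and were under 10 CPM in both libraries. The 8 genes were followed in costal-cartilage-derived stem cells (CDSCs). The study had isolated these cells enzymatically from rib cartilage of neonatal C57BL/6J mice, CD45.1 or ZsGreen. It had sorted them for cells without the blood cell protein CD45 and with the integrin CD51. The series holds 1 single-cell library of primary CDSCs, sequenced without culture, and 1 of CDSCs cultured to passages 2 to 3, grown in minimum essential medium with 10% fetal bovine serum. The labels do not say which of the mouse lines, nor how many animals, gave each library, and they name bone marrow as the tissue of both. The question was whether the collagen transcripts of CDSCs change with expansion in culture. Since each group held a single library, no test was possible, no difference has a replicate check, and all intervals are exact 95% intervals that cover counting error only.

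Collagens I, III and V build the same fibrils of skin, tendon and bone, whereas the main fibrillar collagen of cartilage is collagen II. Collagen I is usually assembled from Col1a1 and Col1a2 chains, with more of the Col1a1 chain than of the Col1a2 chain, and it can also form from Col1a1 chains alone. Collagen III consists of Col3a1 chains, collagen V joins Col5a1 with Col5a2 and starts and thins the fibrils, and collagen VI joins Col6a1, Col6a2 and Col6a3 into beaded filaments around cells, among them the pericellular matrix of chondrocytes.

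By gene identifier in GENCODE M21, a GRCm38 annotation, Col1a1 (ENSMUSG00000001506) lies at chr11:94936224-94953042 on the plus strand and Col1a2 (ENSMUSG00000029661) at chr6:4504814-4541544 on the plus strand, so the partner chains of collagen I come from different chromosomes. Col5a1 (ENSMUSG00000026837) lies at chr2:27886425-28039514 on the plus strand. Col3a1 (ENSMUSG00000026043) at chr1:45311538-45349706 on the plus strand and Col5a2 (ENSMUSG00000026042) at chr1:45374321-45503282 on the minus strand are neighbours, 24614 bases apart. Col6a3 (ENSMUSG00000048126) is on the same chromosome at chr1:90765923-90843971 on the minus strand. Col6a1 (ENSMUSG00000001119) at chr10:76708792-76726168 and Col6a2 (ENSMUSG00000020241) at chr10:76595762-76623630, both on the minus strand, are 85161 bases apart. The annotated genes that overlap Col1a2, Col3a1, Col5a1, Col5a2 and Col6a3 are not among the genes of the files.

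RefSeq sequence before the annotated start (GRCm38.p6) was at hand for 6 of the 8 genes, and not for Col1a1 and Col5a2. It is shown for a gene of each collagen type, as the sequence in front of transcripts that differed in opposite directions below. The 250 bases before the start were searched on both strands for CCAAT (the CCAAT box), GGGCGG (the GC box) and TATAAA (the TATA box), and capitals mark the matches, none of which overlap in the sequences shown. Annotated exon sequence was left out, which shortens the Col1a2 stretch to 123 bases that end 125 bases before the RefSeq start. The GENCODE start of Col1a2, chr6:4504814, lies further upstream, so this stretch is inside the gene as GENCODE places it.
Col1a2, chr6:4505370-4505492, plus strand: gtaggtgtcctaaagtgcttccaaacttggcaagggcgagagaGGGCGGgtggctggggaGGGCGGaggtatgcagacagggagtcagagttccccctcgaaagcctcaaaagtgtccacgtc
Col3a1, chr1:45311288-45311537, plus strand: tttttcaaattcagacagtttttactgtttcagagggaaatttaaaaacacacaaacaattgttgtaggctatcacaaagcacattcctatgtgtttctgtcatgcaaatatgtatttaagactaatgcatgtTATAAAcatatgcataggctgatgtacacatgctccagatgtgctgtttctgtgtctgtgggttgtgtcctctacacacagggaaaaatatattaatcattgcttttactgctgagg
Col5a1, chr2:27886175-27886424, plus strand: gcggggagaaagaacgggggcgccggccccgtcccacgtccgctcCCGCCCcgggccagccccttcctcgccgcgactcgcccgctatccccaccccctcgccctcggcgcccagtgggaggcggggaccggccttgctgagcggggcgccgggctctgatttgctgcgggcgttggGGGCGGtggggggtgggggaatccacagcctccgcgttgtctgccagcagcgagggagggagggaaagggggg
Col6a3, chr1:90843972-90844221, minus strand: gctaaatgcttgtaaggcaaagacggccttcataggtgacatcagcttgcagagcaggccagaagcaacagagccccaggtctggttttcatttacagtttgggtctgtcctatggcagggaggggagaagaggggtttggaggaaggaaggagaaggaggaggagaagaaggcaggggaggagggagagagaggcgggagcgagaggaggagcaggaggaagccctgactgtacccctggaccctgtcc
The Col1a2 window held GC boxes 205 and 188 bases before the start and a CCAAT box 109 bases before it, the latter within annotated exon and therefore not printed. The Col3a1 window held only a TATA box, 117 bases before the start. The Col5a1 window held 2 GC boxes, and the Col6a3 and Col6a1 windows held none of these motifs. For Col6a2, not printed, the window at chr10:76623405-76623654, mostly annotated exon, held 3 GC boxes. The Col6a2 window at chr10:76623631-76623880 held 1 GC box. Of all 32851 windows of this length, 33.8% held CCAAT, 32.7% held GGGCGG and 12.4% held TATAAA. A match is a description of the letters only.

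After removal of failing barcodes and presumed doublets, 10628 primary cells with 114411472 unique molecular identifiers (UMIs, each marking 1 captured transcript) and 4877 cultured cells with 293537594 UMIs were kept, with medians of 9616 and 54810 UMIs per cell. The 14 chondrocyte marker genes summed to 92553 CPM in the primary and to 1030 CPM in the cultured library, and all 14 were lower in the latter by 2-fold or more. The 8 haematopoietic markers, which a bone marrow sample would hold, summed to 8.67 and 34.2 CPM, after a sort against CD45. The 9 osteoblast markers summed to 171 CPM in the primary library and 6733 CPM after culture, nearly all from Spp1 (53.9 and 6617 CPM), which is not limited to bone, while Runx2 was at 111 and 112 CPM. The 6 tenocyte markers summed to 1879 and 134 CPM, with Fmod at 1802 and 55.7 CPM, while Scx was higher after culture (24.6 and 73.6 CPM). In the primary library 10397 cells fell into 8 clusters called chondrocyte-like. A further 181 cells (1.70%) lay in 7 small clusters with raised Postn, a matrix protein of perichondrium and tendon, Pdgfra, Prrx1 and tenocyte markers, among them Tnmd. They were grouped by these genes after their values were seen, and are called Postn and Tnmd clusters below. Of these clusters 4 were tenocyte-like, 1 was fibroblast and perichondrium-like and 2 had no clear name. Postn and Tnmd were also raised in the smooth muscle and pericyte-like cluster 14, which lacked raised Pdgfra and Prrx1 and was kept apart. In this main clustering no cultured cluster but a haematopoietic-like cluster of 9 cells could be named by the markers. A further 853 cultured cells in clusters 2 and 10 were shallow, with a median of 1254 UMIs. The other unnamed cultured clusters are called deep below. The 8 collagen genes were left out of the clustering, and 15 of the kept cell barcodes occurred in both libraries.

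The 8 genes split evenly between the directions. Col1a1, Col3a1, Col5a1 and Col5a2 were higher in the cultured library, and Col1a2 and the 3 collagen VI genes were lower. A difference of 2-fold or more was seen upward in 3 of the 8 genes and downward in 3. Over the 9123 genes that reached 10 CPM in either library, these shares were 27.2% upward and 12.5% downward. Of the same 9123 genes, 64.6% were higher in the cultured library by any amount. The median log2 ratio of cultured over primary was -0.13 over the 8 genes and 0.37 over the 9123. Together the 8 genes took 0.191% of the primary and 0.258% of the cultured UMIs. Since the counts came from transcript 3′ ends, they were not divided by gene length, and levels of different genes are compared below as UMIs.

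**Figure D1:**
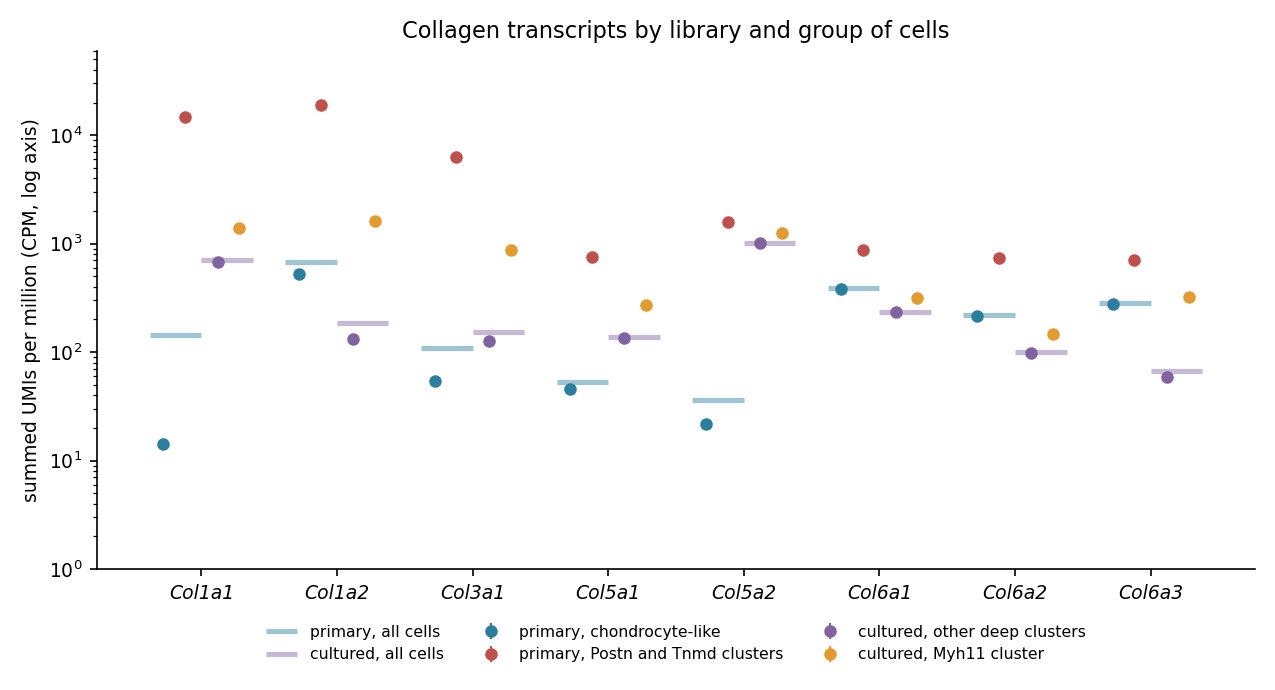
Summed UMIs in CPM (log axis) of each collagen gene. Horizontal lines are all cells of the primary and of the cultured library, and points are groups of clusters within them, with exact 95% Poisson intervals that are mostly smaller than the points. The Postn and Tnmd clusters had the highest level of each gene, and Col1a1 ranged from 14.2 CPM in chondrocyte-like cells to 14805 CPM there.

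Col1a1 and Col1a2, the partner chains of collagen I, differed between the libraries in opposite directions. Col1a1 had 144 CPM (142 to 147) in primary cells, from 16530 UMIs, and at 700 CPM (697 to 703) in the cultured library, from 205447 UMIs, which gave a log2 ratio of 2.28 (2.25 to 2.30). This ratio was 1.43 where all cells had equal weight and 5.62 against chondrocyte-like cells alone. Col1a2 had 681 CPM (676 to 686) before culture and at 184 CPM (182 to 186) after culture, a log2 ratio of -1.89 (-1.90 to -1.87). Among all genes by level, Col1a1 ranked 978 before and 181 after culture, and Col1a2 184 and 905. Of the UMIs of both chains, Col1a1 made up 17.5% (17.3 to 17.8) before and 79.2% (79.0 to 79.3) after culture, a difference of 61.7 percentage points.

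The Col1a1 of the primary library came from few cells. The 181 cells of the Postn and Tnmd clusters gave 86.2% of its Col1a1 UMIs but 23.3% of its Col1a2 UMIs, and 48 cells held more Col1a1 UMIs than all others together. In these clusters Col1a1 was at 14805 CPM and Col1a2 at 18848 CPM, so that Col1a1 made up 44.0% (43.5 to 44.5) of collagen I UMIs. The share varied little over all 7 of them, from 40.0% in cluster 10 to 49.7% in cluster 16, although the Col1a1 level varied 4.51-fold, from 5372 to 24202 CPM. All 87 of their cells with at least 5000 UMIs still held UMIs of both chains when thinned to 5000 UMIs.

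Chondrocyte-like cells, by contrast, held Col1a2 almost without Col1a1. Col1a1 was at 14.2 CPM (13.6 to 15.0) and Col1a2 at 520 CPM (516 to 524) in the 10397 cells, so that Col1a1 made up 2.67% (2.54 to 2.80) of collagen I UMIs and there were 36.5 Col1a2 UMIs for each Col1a1 UMI. Against the Postn and Tnmd clusters of the same library, Col1a1 was 1040-fold and Col1a2 36.3-fold lower. As the detection of Col1a1 in chondrocyte-like cells did not exceed a free-RNA background given below, the Col1a1 fold and ratio are lower bounds and the share an upper bound where part of these UMIs is free RNA. At 5000 UMIs per cell, 73.5% of chondrocyte-like cells held UMIs of Col1a2 only, 2.74% of both chains, 0.494% of Col1a1 only and 23.2% of neither. The few Col1a1 UMIs were concentrated further: 626 of the 10397 cells had any, and 31 cells with at least 10 each held 46.0% of the 1606 UMIs.

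Among the 8 chondrocyte-like clusters, 6 had between 3.72 and 6.03 CPM of Col1a1. The other two were cluster 2, led by Tll1, Clu, Cilp2 and Prg4 (lubricin, a superficial zone protein), at 54.0 CPM, and cluster 8, led by cell division genes, at 42.7 CPM. Cluster 2 was also highest in Col1a2, at 1009 CPM, and cluster 6, led by Runx3, Wnt5b and Ptch1, was lowest, at 148 CPM. The Col1a1 share of collagen I UMIs stayed low throughout, from 0.995% in cluster 1 to 10.3% (8.49 to 12.3) in the 145 cells of cluster 8. The groups of clusters did not overlap in this share, since the lowest of the Postn and Tnmd clusters was at 40.0%.

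**Figure D2:**
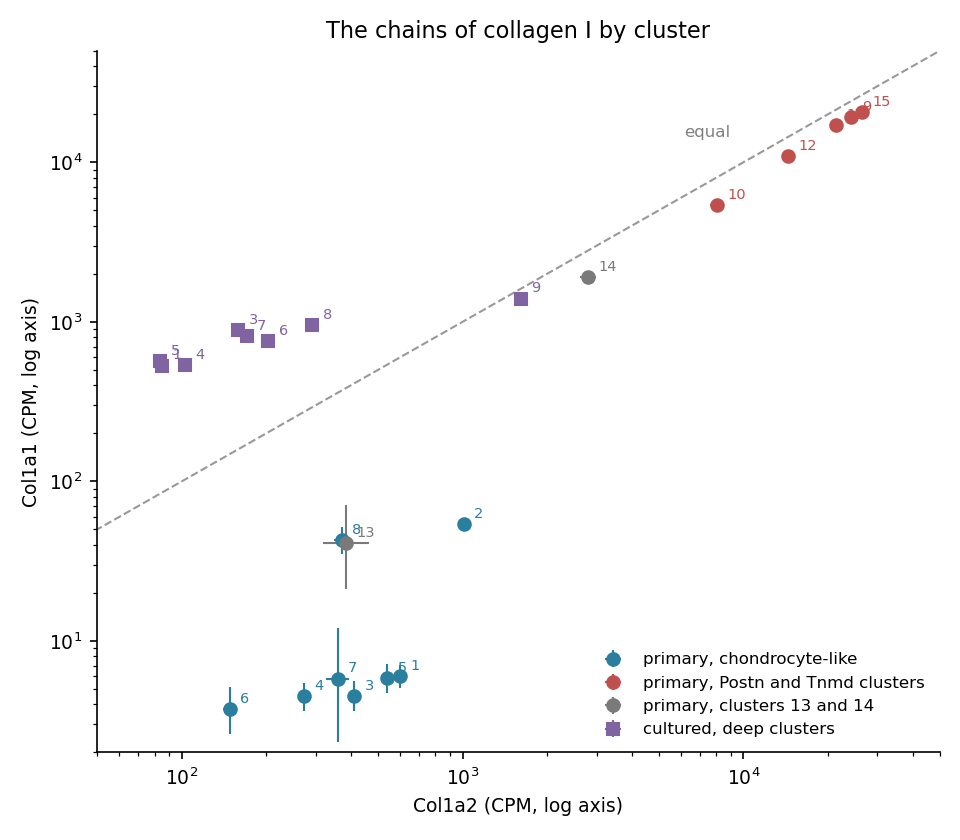
Col1a1 against Col1a2 (CPM, both axes log) in each cluster of at least 20 cells, without the shallow cultured clusters; numbers are cluster numbers, error bars exact 95% Poisson intervals, and the dashed line marks equal levels. Postn and Tnmd clusters and cultured cluster 9 lie near the line, chondrocyte-like clusters far under it and the other cultured clusters above it.

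In the cultured library the balance was the reverse in most cells. Deep clusters other than cluster 9 held 3863 cells, with Col1a1 at 680 CPM and Col1a2 at 133 CPM, and Col1a1 made up 83.6% of collagen I UMIs. By cluster the share ran from 76.6% (76.1 to 77.1) in cluster 8, led by histone genes of S phase, to 87.1% (86.7 to 87.4) in cluster 5. Among cells with at least 10 collagen I UMIs, the median cell had 93.8% Col1a1 (lower quartile 79.6), 812 of 3173 cells had no Col1a2 UMI, and 139 cells were under 50%. At 5000 UMIs per cell, 54.1% of all cultured cells held UMIs of Col1a1 only, 27.0% of both chains and 2.88% of Col1a2 only.

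Cultured cluster 9 stood apart from the rest of its library in Col1a2. Its 152 cells (3.12%) had Myh11, a smooth muscle myosin, Brinp1, Ptn and Thy1 among their leading genes. They had no name by the markers in the main clustering. Only Acta2 and Myh11 of the 9 smooth muscle and pericyte markers were raised. Mfap5 and Thy1 of the 10 fibroblast and perichondrium markers were raised as well. With 30 principal components a cultured cluster of 171 cells led by Myh11 was named smooth muscle and pericyte-like. Col1a2 was at 1613 CPM, 12.1-fold above the other deep clusters, and these cells gave 29.9% of the library's Col1a2 UMIs but 6.80% of its Col1a1 UMIs. Col1a1 was at 1395 CPM, 2.05-fold above the others, so that its share of collagen I UMIs was 46.4% (45.8 to 46.9). This was near the 44.0% of the primary Postn and Tnmd clusters and the 40.5% (38.1 to 42.9) of the primary smooth muscle and pericyte-like cluster 14. Whether cells of this kind came from any of those clusters was not tested.

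**Figure D3:**
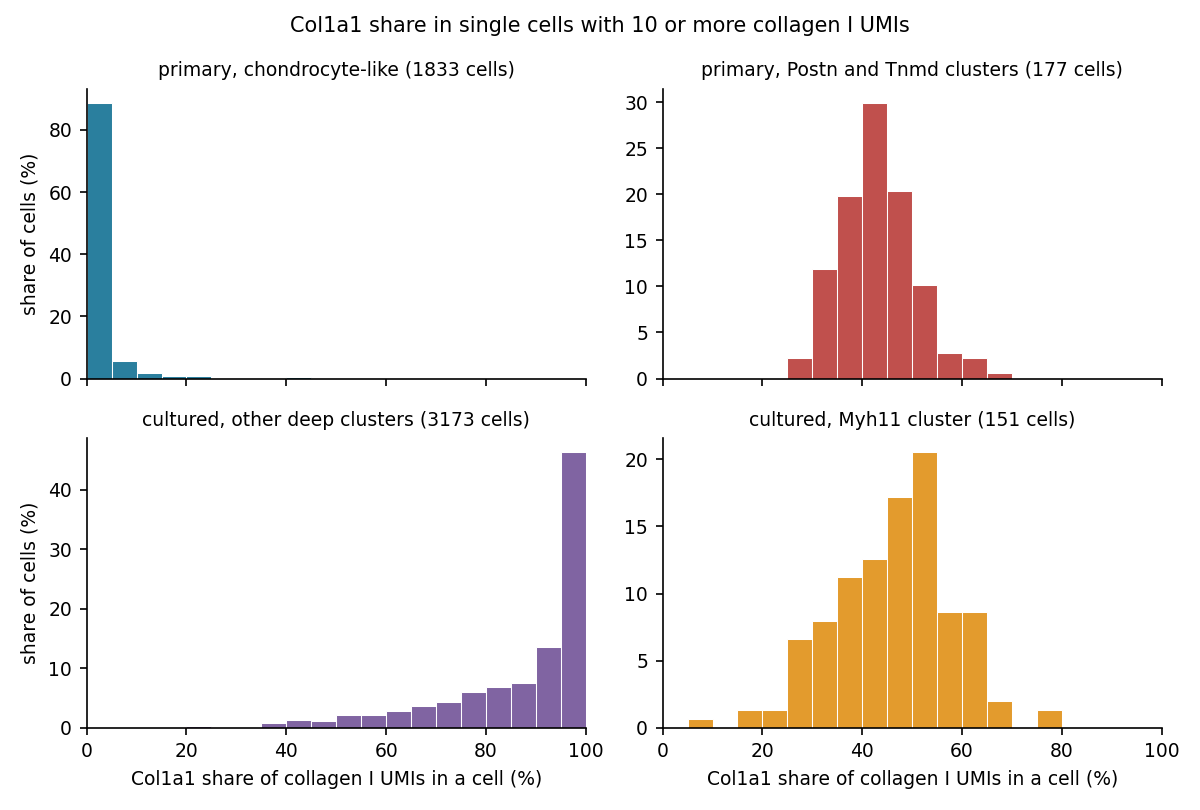
Distribution over single cells of the Col1a1 share of collagen I UMIs (percent, bins of 5) in cells with at least 10 such UMIs; bars are the share of cells (percent) in each of 4 groups. Chondrocyte-like cells pile up at 0 (median 0, 1589 of 1833 cells exactly there) and other deep cultured cells near 100 (median 93.8%). The Postn and Tnmd clusters and the cultured Myh11 cluster lie around medians of 42.6% and 47.3%. The limit kept 1833 of 10397 chondrocyte-like cells and 3173 of 3863 other deep cultured cells. With few UMIs in a cell, a share of exactly 0 or 100 can arise from counting alone.

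The low Col1a1 of chondrocyte-like cells stood in a library that counted 14256 Col1a1 UMIs in its Postn and Tnmd clusters. Detection in cells that should lack collagen was taken as a guide to free RNA. In the primary library 16 cells of the endothelial and mast cell cluster 13 had under 10000 CPM of Col2a1, the chief cartilage collagen (a limit set after the values were seen, with 4 cells within 2-fold of it), and a median of 4813.5 UMIs, against 9698 UMIs in chondrocyte-like cells. Of these 16 cells, 3 (18.8%, interval 4.05 to 45.6%) had a Col1a1 UMI and 4 (7.27 to 52.4%) a Col1a2 UMI, and 1 cell held 32 of the 39 Col1a2 UMIs. The unthinned 6.02% of chondrocyte-like cells with a Col1a1 UMI did not exceed that background and lay within its interval, whereas the 87.7% with a Col1a2 UMI lay above the interval. Col5a2, with a UMI in 17.4% of chondrocyte-like cells and in 3 of the 16, did not exceed it either. For Col1a1, Col5a2 and Col3a1 too, 1 cell held most of the UMIs of the 16 cells: 9 of 11, 8 of 10 and all 7. Col1a1 was at 101 CPM in the 16 cells, above the 14.2 CPM of chondrocyte-like cells. Their CPM therefore gives no free-RNA level for the library. The Col1a1 UMIs were uneven over chondrocyte-like cells and clusters, as given above, and how much of the Col1a1 and Col5a2 there is free RNA was not tested. Col3a1 and Col5a1 could not be told from background at this number of cells, since 29.2% and 33.9% of chondrocyte-like cells lay within the intervals of 1 and 2 of the 16 (0.158 to 30.2% and 1.55 to 38.3%). Col6a1, Col6a2 and Col6a3, in 92.8%, 77.8% and 71.8% of chondrocyte-like cells, lay above the intervals of 1, 1 and 2 of the 16 (upper limits 30.2%, 30.2% and 38.3%). The remaining 10 cells of cluster 13 held 40689 CPM of Col2a1 beside their own markers, and all 10 had Col1a2 UMIs. The 24 smooth muscle and pericyte-like cells of cluster 14 had a Col1a1 share of 40.5%, and with 41840 CPM of Col2a1 they too carried cartilage RNA. How far free RNA or doublets contribute to these 2 clusters was not tested.

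Collagen III differed in the direction of Col1a1, by less. Col3a1 had 110 CPM (108 to 111) before culture and at 152 CPM (151 to 154) in the cultured library, with a log2 ratio of 0.47 (0.45 to 0.50), under 2-fold. Of its primary UMIs 47.9% lay in the Postn and Tnmd clusters, where it was at 6233 CPM, against 54.3 CPM in chondrocyte-like cells. Set against the chondrocyte-like cells alone, the cultured library was higher by a log2 ratio of 1.49, and where all cells had equal weight it was 0.08, so the size of this difference rests on how the few rich cells are weighed. Among chondrocyte-like clusters Col3a1 was highest in cluster 2, at 139 CPM, and lowest in cluster 4, led by Aoc2, Grem1 and Nog, at 16.4 CPM. In the cultured library it was highest in cluster 9, at 865 CPM, 6.76-fold above the other deep clusters, and next in cluster 4, led by Mmp13 (a collagenase) and Csmd1, at 220 CPM. Without cluster 9 the log2 ratio was 0.21.

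Col3a1 stood differently to each collagen I chain. There were 3.82 Col3a1 UMIs for each Col1a1 UMI in chondrocyte-like cells, 0.42 in the Postn and Tnmd clusters, 0.62 in cultured cluster 9 and 0.19 in the other deep cultured cells. Per Col1a2 UMI the order was different, with 0.10, 0.33, 0.54 and 0.96.

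Collagen V was higher after culture in both chains described here, and far more so in Col5a2. Col5a1 had 52.5 CPM (51.2 to 53.9) before culture and at 138 CPM (137 to 140) after culture, a log2 ratio of 1.40 (1.36 to 1.44). Col5a2 had 36.2 CPM (35.1 to 37.3) before culture and at 1009 CPM (1005 to 1012) after culture, a log2 ratio of 4.80 (4.76 to 4.84), or 27.9-fold. This ratio was 4.29 with equal weight for all cells and 5.53 against chondrocyte-like cells alone. Col5a2 was thereby the collagen gene of the 8 with the most UMIs in culture, 296115, and ranked 197 of 9123 genes by its ratio and 133 of all genes by its level.

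Unlike Col1a2, Col5a2 was spread over the cultured cells. The 8 deep clusters ranged from 615 CPM in cluster 1 to 1390 CPM in cluster 3, a 2.26-fold span, and cluster 9 was at 1260 CPM, 1.25-fold above the others. Outside cluster 9 the 10th, 50th and 90th percentile of the cells were 265, 815 and 2066 CPM, and of all 4015 deep cells only 26 had no Col5a2 UMI. In the primary library the Postn and Tnmd clusters held Col5a2 at 1580 CPM and Col5a1 at 761 CPM, and gave 36.7% and 12.2% of the library's UMIs of these genes. Chondrocyte-like cells held 21.9 and 45.9 CPM, both highest in cluster 2, at 52.2 and 92.2 CPM, and Col5a2 was lowest in cluster 6, at 5.37 CPM.

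The Col5a1 and Col5a2 balance was reversed as well. There were 2.10 Col5a1 UMIs (2.00 to 2.20) for each Col5a2 UMI in chondrocyte-like cells, 0.48 (0.44 to 0.53) in the Postn and Tnmd clusters, 0.21 in cultured cluster 9 and 0.13 in the other deep cultured cells. Over the whole libraries, 1.45 Col5a1 UMIs for each Col5a2 UMI became 7.29 Col5a2 UMIs for each Col5a1 UMI. Col5a2 and its neighbour Col3a1, 24614 bases away, differed in their library ratios by more than 4 on the log2 scale.

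**Figure D4:**
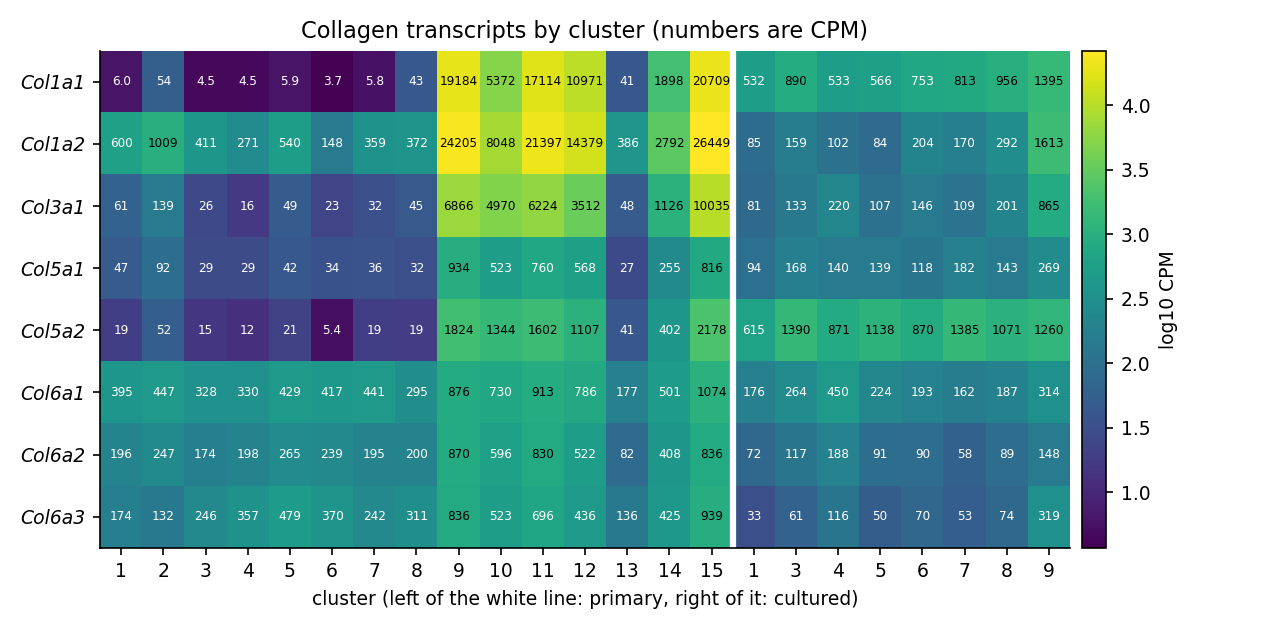
CPM of each collagen gene (rows) in each cluster of at least 20 cells (columns), without the shallow cultured clusters; colour is log10 CPM and the printed numbers are CPM. The primary clusters 9 to 12 and 15, high in Postn and Tnmd, are bright for Col1a1, Col1a2 and Col3a1, and Col5a2 is bright over all cultured clusters.

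Collagen VI was lower in culture in all 3 chains described here, and unequally so. Col6a1 had 389 CPM (385 to 393) before culture and at 234 CPM (232 to 236) after culture, a log2 ratio of -0.73 (-0.75 to -0.71). Col6a2 was at 220 CPM (217 to 222) and 99.6 CPM (98.5 to 101), a log2 ratio of -1.14 (-1.17 to -1.12). Col6a3, whose long chain carries most of the globular domains of the protein, was at 282 CPM (279 to 285) and 67.3 CPM (66.3 to 68.2), a log2 ratio of -2.07 (-2.09 to -2.04).

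Nearly all collagen VI UMIs of the primary library lay in the chondrocyte-like cells. Postn and Tnmd clusters gave only 1.9 to 2.8% of the UMIs of each chain, while their levels of 868, 741 and 700 CPM for Col6a1, Col6a2 and Col6a3 were 2.25, 3.45 and 2.52-fold above those of chondrocyte-like cells. With the chondrocyte-like cells alone as the primary side, the log2 ratios were -0.72, -1.11 and -2.05. Col6a1 and Col6a2 varied 1.51-fold and 1.52-fold over the 8 chondrocyte-like clusters, from 295 to 447 CPM and from 174 to 265 CPM. Col6a3 varied 3.61-fold, and in another order: it was lowest in cluster 2, at 132 CPM, where all other members but Col6a2 were highest, and highest in cluster 5, with Ptgs2 among its leading genes, at 479 CPM.

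In the cultured library Col6a1 and Col6a2 were highest in cluster 4, at 450 and 188 CPM, the cluster that also held Comp and Col14a1 among its leading genes. Col6a3 was instead highest in cluster 9, at 319 CPM, 5.42-fold above the other deep clusters, and cluster 9 gave 16.2% of the library's Col6a3 UMIs against 4.58% of its Col6a1 UMIs. Without cluster 9 the log2 ratio of Col6a3 was -2.27. The number of Col6a1 UMIs for each Col6a3 UMI was 1.38 before and 3.48 after culture, and for each Col6a2 UMI 1.77 and 2.35. In cluster 9 Col6a1 and Col6a3 were nearly even, with 0.98 (0.94 to 1.04) Col6a1 UMIs for each Col6a3 UMI.

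Shares of cells with a UMI, taken after thinning to 5000 UMIs so that the deeper cultured cells had no advantage, differed between the libraries in the direction of the CPM for each of the 8 genes. Col1a1 was found in 4.32% of the 9845 primary and 81.2% of the 4093 cultured cells, Col1a2 in 76.5% and 29.9%, and Col5a2 in 10.3% and 91.5%. Col3a1 was found in 20.1% and 36.8%, and Col5a1 in 1967 primary and 1840 cultured cells of these totals. Col6a1 went from 81.4% to 63.1%, Col6a2 from 60.0% to 35.9% and Col6a3 from 58.4% to 25.3%. Cells under 5000 UMIs, out of 10628 and 4877, were left out. Without thinning Col6a2 alone changed its order, at 78.0% of primary and 79.6% of cultured cells.

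**Figure D5:**
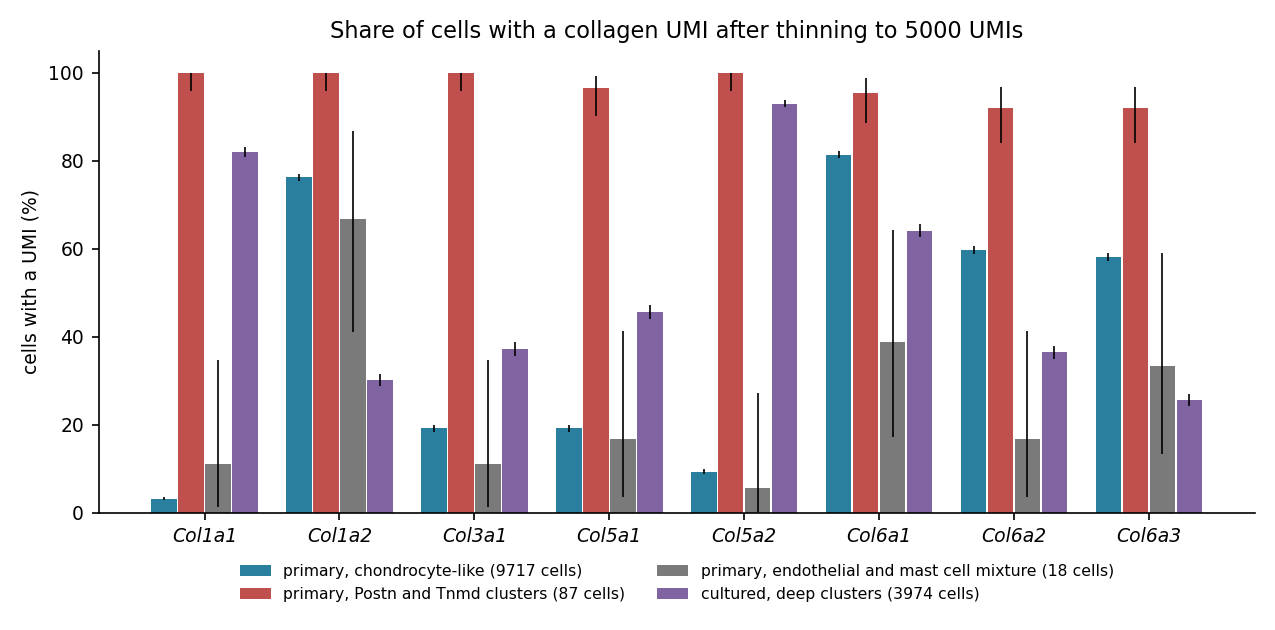
Percent of cells with at least 1 UMI of each gene, after thinning each cell to 5000 UMIs, in groups of clusters; error bars are exact 95% binomial intervals. Deep cultured cells lie above chondrocyte-like cells for Col1a1, Col3a1, Col5a1 and Col5a2 and below them for Col1a2 and the collagen VI genes, and the grey bars of the 18 endothelial and mast cell barcodes, some with cartilage RNA, have wide intervals.

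In the cultured library the background was read from the 9 haematopoietic-like cells, which had a median of 35946 UMIs against 65865 in the deep clusters. Of these, 8 had a Col1a1 UMI, 8 a Col5a2 UMI and 1 a Col1a2 UMI, with a median of 3, 3 and 0 UMIs per cell, and a single cell held 163 of the 205 Col5a2 UMIs. Col1a1 was at 88.8 CPM and Col1a2 at 4.93 CPM there, under the 532 and 84.0 CPM of the lowest deep clusters. Col5a2 was at 506 CPM there with that cell included, against 615 CPM in the lowest deep cluster. A Col5a2 or Col1a1 UMI in nearly every deep cell is therefore, by itself, not above the background detection of 8 of 9 cells. Of the other genes, Col6a1 had a UMI in 6 of the 9 cells, Col3a1, Col5a1 and Col6a2 in 5 each and Col6a3 in 2.

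Over the 15 primary clusters of at least 20 cells, the genes most like Col1a1 by Pearson correlation of log2(CPM + 1) were Postn (r = 0.99), Itgbl1, Abi3bp, Igfbp5 and Epb41l3. Those most like Col1a2 were Ctsk (cathepsin K, a collagen-degrading protease; r = 0.99), Col14a1, Fstl1, C1qtnf2 and Podn. Epb41l3, C1qtnf2 and Podn were listed at 0 in at least 1 cluster, and between Col1a1 and Col1a2 themselves r was 0.97. Over the 10 cultured clusters of that size, which include the shallow ones, Col1a1 was most like Tpm1 (r = 0.95), Nars, Gask1b, Klf7 and Abi3bp. The genes most like Col1a2 included Myh11 (r = 0.97), Itga8, Thy1 and Brinp1. These correlations share the depth of the clusters. In the primary library they span the contrast of the Postn and Tnmd clusters, which were grouped by Postn, with the chondrocyte-like clusters. In the cultured library those of Col1a2 span cluster 9, where Col1a2 was highest. How far the correlations rest on these clusters was not tested.

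Most other collagen genes were lower after culture. Of the 18 other collagen genes with at least 10 CPM, 4 were higher by 2-fold or more after culture and 12 lower, with a median log2 ratio of -3.57. All 9123 genes gave 27.2% higher and 12.5% lower. The cartilage chains led, with Col9a2 going from 5565 to 0.739 CPM, Col9a3 from 7434 to 2.54 CPM, Col11a2 from 2939 to 1.26 CPM and Col9a1 from 4551 to 2.73 CPM.

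Among 25 genes of collagen folding, processing and cross-linking, 4 were at least 2-fold higher and 10 lower, with a median log2 ratio of -0.66. Beside these counts stand 27.2% higher and 12.5% lower over the 9123 genes. Lox, the lysyl oxidase that cross-links fibrils, went from 17.2 to 1185 CPM and Pcolce, which enhances C-propeptide cleavage, from 51.2 to 291 CPM, while its relative Pcolce2 went from 263 to 14.6 CPM and the propeptidase Adamts3 from 139 to 6.31 CPM. Of 12 genes of fibril partners 1 was at least 2-fold higher, Fbln2 (fibulin 2, from 2.24 to 464 CPM), and 7 were lower. The fibril-binding proteoglycans Lum, Fmod and Dcn were among these, at 807, 1802 and 1370 CPM before and 15.2, 55.7 and 67.0 CPM after culture.

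Of 10 collagen receptor genes 6 were at least 2-fold higher and 2 lower, or 5 and 2 under TMM scaling (trimmed mean of M-values). The shares over the 9123 genes were 27.2% higher and 12.5% lower, or 22.1% and 15.3% under TMM scaling. Itgb1, the shared beta chain of the collagen-binding integrins, went from 163 to 684 CPM, Ddr2 (a fibrillar collagen receptor) from 116 to 246 CPM and Antxr1 from 50.2 to 162 CPM, while Cspg4 went from 159 to 40.5 CPM. Of 4 degradation genes 2 were at least 2-fold higher and 1 lower, with Mmp14 going from 73.9 to 152 CPM and Mmp2 from 251 to 137 CPM. The median of this list, 0.08, was below 0 under TMM scaling, at -0.12, with 1 gene higher and 2 lower.

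Of 15 genes held to regulate collagen I transcripts, 3 were at least 2-fold higher, 1 was lower and 11 were within 2-fold. The shares over the 9123 genes were 27.2% higher and 12.5% lower. The median log2 ratio of this list was 0.10, which was -0.11 under TMM scaling. Twist2 went from 3.66 to 26.8 CPM, Creb3l1 (an activator of collagen I genes in bone) from 12.9 to 43.0 CPM and the tendon factor Scx from 24.6 to 73.6 CPM. Fli1, a repressor of Col1a2 in dermal fibroblasts, went from 44.6 to 6.14 CPM. Sp1 and Sp3, which bind GC boxes, were at 31.5 and 39.3 CPM in the primary and at 33.7 and 38.3 CPM in the cultured library. Nfya, Nfyb and Nfyc, subunits of the factor that binds CCAAT, were at 11.3, 26.0 and 49.1 CPM in the primary and 6.99, 37.1 and 31.0 CPM in the cultured library. Smad7 and Cebpb were at 178 and 521 CPM against 95.6 and 351 CPM, and Smad3, Ets1, Yy1 and Runx2 at 76.6, 29.6, 95.0 and 111 CPM against 81.9, 43.9, 112 and 112 CPM.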

How the data were processed

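Per the file headers and the submitters' processing notes, the reads were processed by the authors with Cell Ranger 7.0.0. The deposited files hold unnormalized UMI counts by gene and barcode from a 3′ droplet kit. The genome was GRCm38 per the study's methods, while the processing labels list a later mouse build as well. The annotation release was not given in the sources used here. From these counts, barcodes were kept from 500 genes and 1000 UMIs upward, where mitochondrial UMIs were 10% or less. Of 11896 primary and 10798 cultured barcodes, 150 and 5460 failed. Scrublet in scanpy 1.11.5 called 0 and 1 doublets and had not worked, so the highest scores were left out at 0.8% per 1000 barcodes, 1118 and 461 cells. Summed counts were scaled to CPM, and log2 ratios are cultured over primary, with counts under 3 raised to 3 (0.0262 and 0.0102 CPM). Levels have exact Poisson, shares exact binomial (Clopper-Pearson) and ratios exact conditional intervals, checked on simulated data.

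Each library was clustered alone, without the 8 genes (2000 variable genes, 10 principal components, 20 neighbours, leidenalg 0.10.2, resolution 0.5). Clusters were named from fixed markers as the class with most markers, or as chondrocyte-like by the abundance of chondrocyte markers. Cells of at least 5000 UMIs were thinned to 5000. TMM factors came from edgeR 4.0.16 and served scaling only. The named genes were the 8 genes, for Col1a1 and Col1a2 the 5 most alike genes of at least 50 CPM over clusters of at least 20 cells, of each list at most 4 genes of at least 100 CPM with the greatest absolute log2 ratios, and collagen I regulators of at least 10 CPM. Genes that lead a cluster were named to describe it, after their values were seen. The genes and lists were chosen with earlier results of these data known. Some genes that these rules name are not reported here.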

Additional observations from a re-analysis of the deposited data

How the results depend on the processing

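Each of the 8 genes kept the direction of its ratio under all 10 alternatives: 7 other choices of cells or weights, the last of which (without cultured cluster 9) was chosen after seeing the data, and 3 other scalings. The number at least 2-fold apart stayed at 6, except at 7 against chondrocyte-like cells alone, also chosen after seeing the data for that count, where Col3a1 passed. The log2 ratio of Col1a1 ran from 1.43 where all cells had equal weight to 5.62 against chondrocyte-like cells alone, and that of Col5a2 from 4.29 to 5.53 under the same settings. Trimmed mean of M-values scaling moved the median of all genes by -0.20, as did leaving out the 50 highest genes. The difference in the Col1a1 share, 61.7 percentage points, was 61.2 with every barcode, 61.3 without doublet removal and 64.5 with at least 5000 UMIs per cell. It was 66.0 without cultured cluster 9 and 76.5 against chondrocyte-like cells alone. As a mean of single-cell shares it was 79.1, but only over cells with at least 10 collagen I UMIs, 2035 primary and 3367 cultured. The lowest Col1a1 share of a deep cultured cluster was 47.1% with 30 principal components. With a minimum of 1 CPM the background was 29.0% and 15.0% of genes. More genes, 5 in place of 4, had a higher share of cells in culture without thinning. Depth limited the small clusters, and the absence of replicates limited all comparisons. No paired analysis was possible because each group held 1 library.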

Other observations

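Barcodes that the filter left out also held collagen transcripts. The 5460 cultured barcodes, with a median of 775 UMIs, held Col5a2 at 1812 CPM, Col1a1 at 744 CPM and Col1a2 at 239 CPM, and Col1a1 made up 75.7% of their collagen I UMIs. The 150 primary barcodes, 113 of them over the mitochondrial limit, held Col6a3 at 614 CPM and Col1a1 at 471 CPM, with a Col1a1 share of 37.6%.

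Among deep cultured cells, absence of a UMI was most frequent for Col1a2, at 0 in 1258 of 4015 cells (31.3%), followed by Col6a3 in 821 and Col3a1 in 779. The cells without Col1a2 had a median of 49924 UMIs, against 65865 over all deep cells. Col1a1 was at 0 in 94 of these cells, whose median was 21351 UMIs.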
